A study of Mus musculus with 15 samples.

Results

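Neurexins, neuroligins and other synaptic adhesion molecules were followed through 21 transcripts of 8 genes in mouse cortex, 1 month after repeated head impacts given at high frequency (HF-HI). The genes were Nrxn2, Nrxn3, Nlgn1, Nlgn2, Nlgn3, Lrrtm3, Cntn1 and Igsf9b, and the transcripts were selected by gene name alone, as every listed row of these genes. They were 21 of the 10370 transcripts in the table and 8 of its 7740 genes. The annotation holds 58 transcripts of these genes, and those outside the table were not analysed here. The 8 genes had been proposed with earlier results of this same HF-HI and Sham comparison in view. All differences between the groups are therefore given as descriptions with their intervals, and not as independent tests.

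The libraries were made from total RNA of cortex from male C57BL/6 mice (the J substrain, per the study's methods), labelled as 12 weeks of age. The 8 HF-HI libraries came from mice that had received repeated head impacts under isoflurane on consecutive days, and the 7 Sham libraries from mice anesthetized in the same way without impact. The labels name no genetic change, litter or batch. The tissue was homogenized whole, so fewer cells of a type and less RNA per cell cannot be told apart.

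Neurexins are presynaptic membrane proteins that reach across the synaptic cleft and bind neuroligins and leucine-rich repeat proteins (LRRTMs) on the postsynaptic side. Each neurexin gene has a distal promoter for a long α form and an internal promoter for a shorter β form, and alternative coding exons change which partner it binds. Nlgn1 is known mainly from excitatory synapses, Nlgn2 from inhibitory synapses and Nlgn3 from both. Lrrtm3 is a postsynaptic neurexin ligand, Cntn1 is a GPI-anchored contactin of axons and of the contacts between axons and glia, and Igsf9b is an immunoglobulin-type adhesion protein of inhibitory synapses.

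Some listed transcripts of a gene differed by short coding cassettes, which are shown because isoforms named below carry or skip them. The cassettes are not all that separates these isoforms. Nrxn3-201 has 346 bases that no other listed Nrxn3 transcript holds, of which 27 are coding. The listed Cntn1 and Nlgn2 transcripts do not differ by a coding cassette. Sequences were read from the GENCODE M21 transcripts of GRCm38, 5′ to 3′ on the coding strand, with the cassette in capitals and 15 coding bases on each side in lower case.
Nrxn3-201 cassette, 27 bases, chr12:89517906-89517932, plus strand: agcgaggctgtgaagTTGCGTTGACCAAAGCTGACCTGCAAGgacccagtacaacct
Nrxn3 exon of splice site 4, 90 bases, chr12:90199147-90199236, plus strand: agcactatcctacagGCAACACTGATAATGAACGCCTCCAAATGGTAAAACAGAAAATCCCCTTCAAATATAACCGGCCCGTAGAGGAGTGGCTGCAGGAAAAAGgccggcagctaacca
Nlgn1-201 cassette, 60 bases, chr3:25920178-25920237, minus strand: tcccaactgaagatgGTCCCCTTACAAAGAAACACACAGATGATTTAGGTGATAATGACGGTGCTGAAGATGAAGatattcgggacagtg
Nlgn1-201 cassette, 27 bases, chr3:25439865-25439891, minus strand: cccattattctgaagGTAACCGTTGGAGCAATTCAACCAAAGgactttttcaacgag
Nlgn3-206 cassette, 60 bases, chrX:101303072-101303131, plus strand: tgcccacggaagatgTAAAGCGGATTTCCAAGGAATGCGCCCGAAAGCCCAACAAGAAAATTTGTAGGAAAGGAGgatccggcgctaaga

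The 60-base cassettes of Nlgn1 and Nlgn3 were identical at 16 of 60 bases (26.7%). Every cassette shown is a multiple of 3 bases long and keeps the reading frame.

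The listed transcripts held 5798810 to 10582858 recovered reads per Sham library and 3496103 to 8666307 per HF-HI library. Size factors, which scale each library for depth, were 0.818 to 1.47 and 0.501 to 1.22, and 3 HF-HI libraries (replicates 2, 4 and 7) lay below 0.7 while no Sham library did. HF-HI replicate 2 stood apart on the first principal component of all transcripts, at 12.58 against -3.35 to 0.72 in the other 14 libraries. The cortical neuron markers were all listed (10 of 10 genes), at summed levels of 16910 to 18782 normalized counts in Sham and 17745 to 19645 in HF-HI, where 5 of 8 sums exceeded every Sham sum. Of their 12 transcripts, 3 were higher at an unadjusted p under 0.05 in limma, which 8.83% of all 10370 transcripts reached. Inhibitory neuron markers were also all listed (6 of 6), at 5481 to 6187 and 5108 to 6126, with 0 of 7 transcripts called in this way. Striatal neuron markers (8 of 9 listed) summed to 7110 to 10830 in Sham and 5063 to 10294 in HF-HI, and 3 of their 15 transcripts were lower at that threshold. Microglial markers (4 of 6 listed) summed to 1485 to 1689 and 1292 to 1672, with 1 of 4 transcripts lower, and 1 of 12 astrocyte transcripts (8 of 8 genes listed) was lower at sums of 40893 to 43394 and 39942 to 45828. Choroid plexus markers (2 of 6 listed) varied most of the marker lists. They summed to 1972 to 11212 in Sham and 2018 to 13832 in HF-HI, with 0 of 5 transcripts called. The part of depth and of these markers in the results below was not tested, apart from the values without the shallow libraries and with depth as a covariate.

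Across the members, levels were compared as normalized counts per kilobase of annotated transcript, the only scale here on which genes can be ordered. Cntn1 was highest, at 871 ± 19.2 (SD over all 15 libraries), followed by Nrxn3 at 537 ± 27.5, Nrxn2 at 272 ± 36.5, Nlgn1 at 221 ± 12.2, Nlgn2 at 206 ± 16.5, Nlgn3 at 121 ± 13.6, Lrrtm3 at 117 ± 11.2 and Igsf9b at 116, with a range of 85.4 to 146. These means pool both groups, and the order of the lowest genes differed between them. Nlgn3, Lrrtm3 and Igsf9b had means of 126, 125 and 104 in Sham, and 116, 110 and 126 in HF-HI. Cntn1 lay above 94.1% of the 7740 genes on this scale and Igsf9b above 47.5%. Cntn1 exceeded Nrxn3, Nrxn3 exceeded Nrxn2, and Nlgn2 exceeded Nlgn3 in 15 of 15 libraries, with no overlap of their ranges. Neighbours that overlapped were Nrxn2 and Nlgn1 (Nrxn2 higher in 14 of 15), Nlgn1 and Nlgn2 (Nlgn1 higher in 11), Nlgn3 and Lrrtm3 (Nlgn3 higher in 10), and Lrrtm3 and Igsf9b (Lrrtm3 higher in 7).

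**Figure D1:**
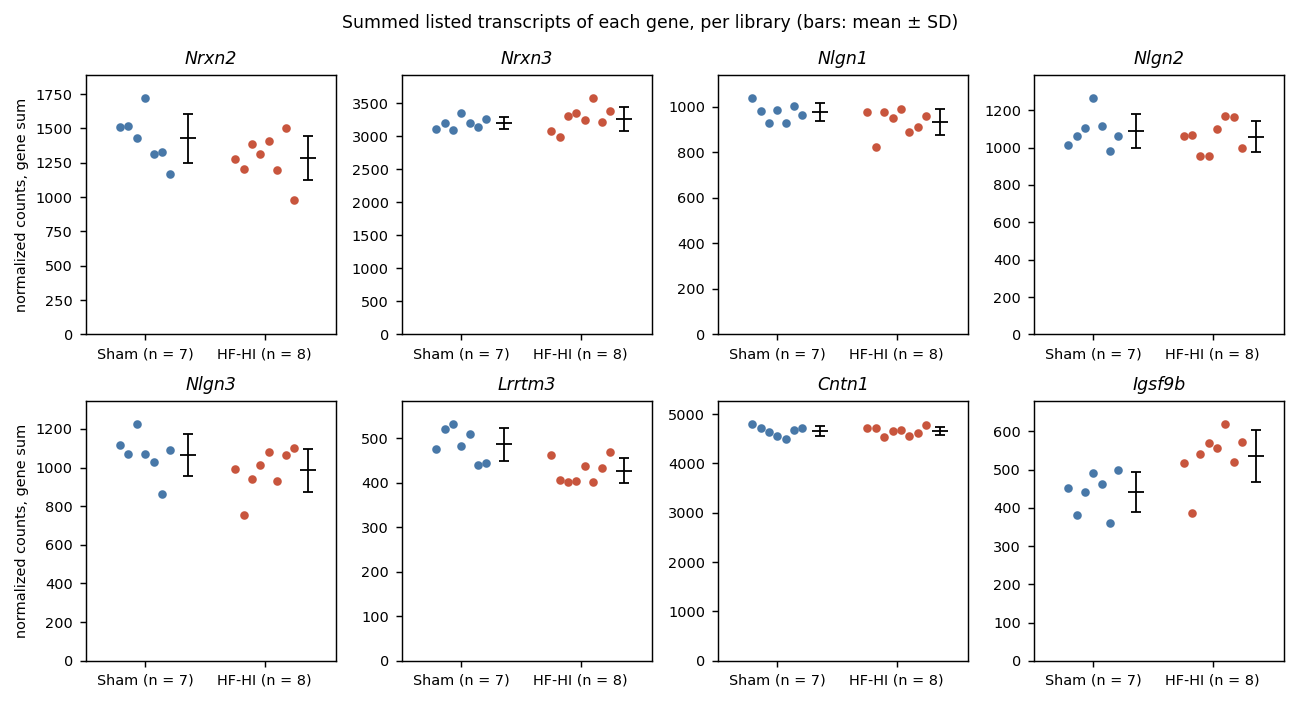
Normalized counts summed over the listed transcripts of each gene (vertical axis, starting at 0) in each Sham (blue, n = 7) and HF-HI (red, n = 8) library; bars are mean ± SD. The groups overlap in every panel, and 6 of 8 HF-HI libraries lie below every Sham library for Lrrtm3 and 7 of 8 lie above every Sham library for Igsf9b.

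Summed over its listed transcripts, the total output of most genes was close in both groups. In limma fits on log2 gene sums, the 95% interval of HF-HI minus Sham left out 0 for 2 of the 8 genes, Lrrtm3 lower and Igsf9b higher. This corresponds to an unadjusted p under 0.05, which 9.94% of all 7740 gene sums reached. At a Benjamini-Hochberg adjusted p under 0.1, limma called 0% of all gene sums and none of the 8, whose smallest adjusted p was 0.242. Nothing about the members is read from these counts, since the choice of genes had used the contrast.

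Lrrtm3, the postsynaptic neurexin ligand, was represented by a single listed transcript (Lrrtm3-201, chr10:63928472-64090274, minus strand). Its normalized count ranged from 439 to 531 in Sham, with a median of 482, and from 401 to 470 in HF-HI, with a median of 420. Each of the 8 HF-HI values was under the Sham median and 6 were under every Sham value, so that the groups shared only the range from 439 to 470. The means were 486 ± 36.4 (SD, n = 7) and 427 ± 27.9 (n = 8), and the log2 difference was -0.19 (95% interval -0.30 to -0.07).

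Igsf9b, the adhesion protein of inhibitory synapses, was likewise represented by a single listed transcript (Igsf9b-202, chr9:27299228-27334763, plus strand). Its normalized count was 362 to 500 in Sham, with a median of 452, and 386 to 618 in HF-HI, with a median of 549. HF-HI replicate 2 was the lowest of its group at 386, and the other 7 HF-HI libraries, from 517 upward, all lay above every Sham library. The means were 442 ± 51.9 and 535 ± 68.4, and the log2 difference was 0.27 (95% interval 0.08 to 0.46). Without HF-HI replicate 2 it was 0.34.

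The neurexin and neuroligin genes had intervals that included 0. The log2 difference of the sums was -0.15 (-0.33 to 0.03) for Nrxn2 and 0.03 (-0.04 to 0.10) for Nrxn3. Among the neuroligins it was -0.06 (-0.15 to 0.02) for Nlgn1, -0.04 (-0.16 to 0.08) for Nlgn2 and -0.11 (-0.28 to 0.05) for Nlgn3. Nrxn2 and Nlgn3 are the members of this group with the widest intervals, and their spread over the 15 libraries (coefficient of variation 13.3% and 11.2%) exceeded that of 92.9% and 86.3% of the 1639 genes with several listed transcripts. The Nlgn3 sum was 754 in HF-HI replicate 2, and without that library the difference was -0.06.

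Cntn1, the axonal contactin, had the steadiest total of all members. Its sum was 4502 to 4790 normalized counts in Sham and 4529 to 4770 in HF-HI, which amounts to a coefficient of variation of 1.89% over all libraries, and only 0.122% of the 1639 genes with several listed transcripts varied less. The HF-HI range lay inside the Sham range. The log2 difference was -0.001 (-0.05 to 0.05). The 3 transcripts behind this sum varied by 10.9% to 21.1%. Oligodendrocytes also express Cntn1, and their markers (7 of 7 genes listed, 0 of 18 transcripts at an unadjusted p under 0.05 in limma) summed to 28140 to 32249 normalized counts among Sham and 26585 to 33188 among HF-HI libraries.

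**Figure D2:**
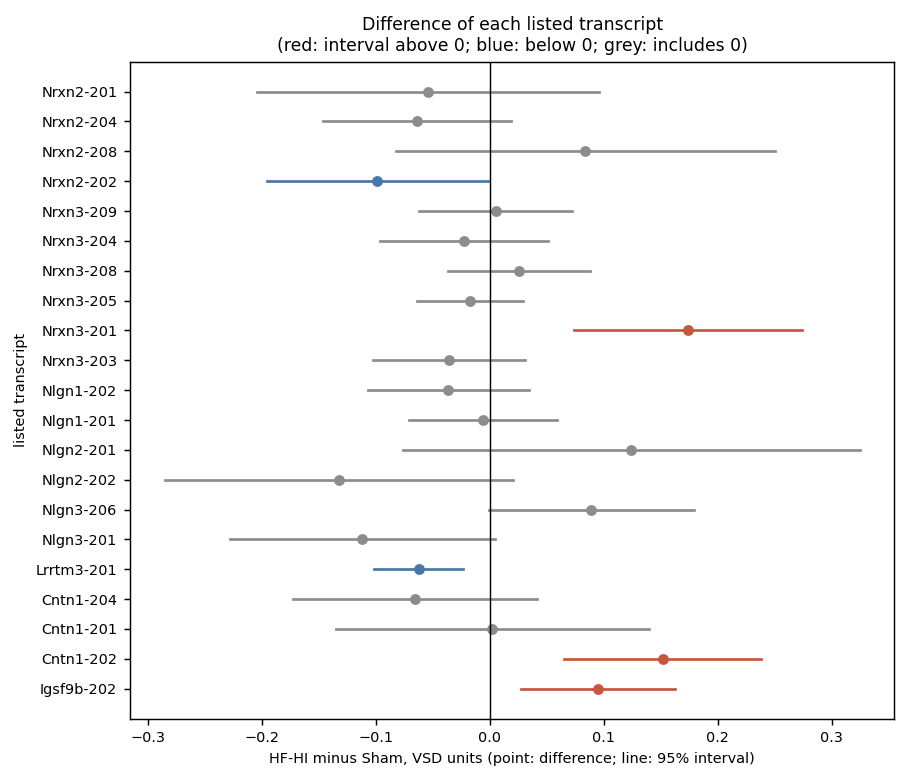
Difference of each of the 21 listed transcripts in VSD units (horizontal axis, HF-HI minus Sham from limma), with 95% intervals as lines. The intervals of Nrxn3-201, Cntn1-202 and Igsf9b-202 lie above 0, those of Lrrtm3-201 and Nrxn2-202 lie below 0, and the other 16 include 0.

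Single transcripts were compared on the deposited variance-stabilized (VSD) scale, which is in log2 units but narrows differences at low levels, so that 300 normalized counts and its double differ by 0.33. Of the 21 transcripts, 5 had intervals that left out 0 (23.8%), 3 of them higher and 2 lower, beside 8.83% of all 10370 transcripts. The median difference was -0.02 over the 21 and -0.001 over all transcripts. None passed an adjusted p of 0.1 in limma, nor did any of the 10370 (0%), and the adjusted p of the members ran from 0.319 to 0.996. With voom on the recovered reads, 4 of the 5 had an unadjusted p under 0.05 and none passed the adjusted threshold.

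Nrxn3-201 (ENSMUST00000057634, chr12:88953399-90333060, plus strand) encodes 3300 coding bases from a start downstream of the longer α transcripts, and it is the only listed Nrxn3 transcript with the 27-base cassette TTGCGTTGACCAAAGCTGACCTGCAAG. Its normalized count was 122 to 192 in Sham, with a median of 154. The HF-HI values were 272, 106, 242, 353, 251, 301, 347 and 264 in replicates 1 to 8. Replicate 2 was thus below every Sham library and the other 7 were above every Sham library. The means were 155 ± 24.5 and 267 ± 77.4, and the VSD difference was 0.17 (95% interval 0.07 to 0.27). Without HF-HI replicate 2 the difference was 0.21 and the limma adjusted p 0.0230, the only call at the adjusted threshold among the members when a single library was left out. In the libraries with a size factor above 0.7, the difference was 0.18 and the limma adjusted p 0.0504. Both fits leave out the only HF-HI library that went against the difference, so they are not separate evidence for it. The reads behind the values numbered 69 in HF-HI replicate 2 and at most 314 elsewhere.

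The transcript with the most Nrxn3 reads, Nrxn3-205 (α form, 4713 coding bases), held 67.2% ± 1.26 of the gene sum in Sham and 64.5% ± 1.86 in HF-HI. Its normalized count was 2095 to 2198 among Sham and 1871 to 2268 among HF-HI libraries, and its VSD difference was -0.02 (-0.06 to 0.03). Nrxn3-201 was small beside it, at 4.87% ± 0.838 of the gene sum in Sham and 8.13% ± 2.25 in HF-HI. Of the listed transcripts that span the 27-base cassette, only Nrxn3-201 carries it. It held 5.69% ± 0.934 of their counts in Sham and 9.33% ± 2.38 in HF-HI. This share restates the level of Nrxn3-201, is not corrected for transcript length and does not measure reads over the cassette. The exon of splice site 4 is skipped by the short Nrxn3-203 (1290 coding bases) alone among the listed transcripts that span it. Nrxn3-203 held 4.96% ± 1.13 of their counts in Sham and 4.27% ± 1.05 in HF-HI. That share has the same limits, and Nrxn3-203 also has 1167 bases that no other listed Nrxn3 transcript holds. The 2 retained-intron transcripts of Nrxn3 and its transcript annotated for nonsense-mediated decay had intervals that included 0.

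Nrxn2 was listed with 3 α-type transcripts and with Nrxn2-202 (ENSMUST00000113458, chr19:6497828-6533217, plus strand), which starts at its own internal first exon and encodes 1980 bases, as a β form does. Nrxn2-202 had 290 to 492 normalized counts in Sham, with a median of 439, and 226 to 451 in HF-HI, with a median of 319. The groups overlapped over most of their range, although 7 of 8 HF-HI values were under the Sham median. The means were 407 ± 79.5 and 326 ± 75.2, and the VSD difference was -0.10 (-0.196 to -0.002). This interval barely left out 0, and it included 0 in 15 of 25 alternative analyses.

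The α transcript with the highest mean, Nrxn2-201, ranged from 349 to 640 normalized counts among Sham and from 266 to 763 among HF-HI libraries, with a VSD difference of -0.05 (-0.20 to 0.10). Nrxn2-208 varied most of all members, from 25.2 to 212 normalized counts among Sham and from 90.7 to 382 among HF-HI libraries. Its coefficient of variation was 60.5%.

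**Figure D3:**
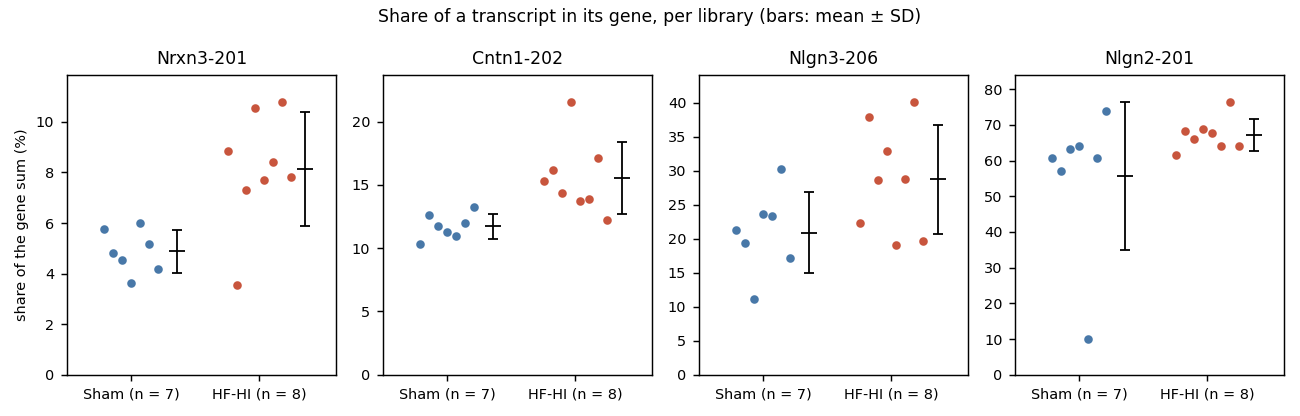
Share of a transcript in the sum of its gene's listed transcripts (vertical axis, percent, starting at 0) in each library, with mean ± SD beside the points. Nrxn3-201 and Cntn1-202 have higher shares in most HF-HI libraries, Nlgn3-206 overlaps between groups, and Nlgn2-201 falls to 9.99% in Sham replicate 5 alone.

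The balance among the transcripts of a gene was examined as the log2 ratio of a transcript to the other listed transcripts of its gene. Of the 19 member transcripts that could be compared in this way, 4 had intervals that left out 0 (21.1%), beside 6.28% of all 4140. They were Nrxn3-201, Cntn1-202 and the Nlgn3 pair, which counts as 1 result because its transcripts mirror each other. None passed the adjusted threshold in limma, where the smallest adjusted p was 0.577, and 0% of the 4140 did. The log2 ratio of Nrxn3-201 differed by 0.74 between groups.

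Cntn1-202 (ENSMUST00000068378, chr15:92161357-92340114, plus strand) encodes the same 3060 bases as the other listed Cntn1 transcripts and differs from them in its first exon and its 3′ end. It had 492 to 626 normalized counts in Sham, with a median of 545, and 583 to 1005 in HF-HI, with a median of 686. Each of the 8 HF-HI values was over the Sham median and 7 were over every Sham value. The means were 547 ± 50.8 and 723 ± 133, the VSD difference was 0.15 (0.07 to 0.24), and its share of the gene sum was 11.7% ± 0.990 against 15.5% ± 2.87.

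Depth moved with this transcript. The 3 shallowest libraries, HF-HI replicates 4, 7 and 2, held its 3 highest values, at 1005, 789 and 763 normalized counts, and the other 5 HF-HI libraries lay between 583 and 720. Without those 3 libraries the VSD difference was 0.09, with an interval that still left out 0. With the log2 size factor as a covariate it was 0.07, with an interval that included 0. Nrxn3-201, Lrrtm3-201 and Igsf9b-202 had differences of 0.16, -0.06 and 0.11 with that covariate, all with intervals that left out 0.

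The most abundant Cntn1 transcript, Cntn1-204, ranged from 2512 to 3240 normalized counts among Sham and from 2191 to 3024 among HF-HI libraries, with a VSD difference of -0.07 (-0.17 to 0.04). Its lowest values, 2191 and 2245, were in HF-HI replicates 4 and 7, where Cntn1-202 was highest. The sum of the gene was 4659 and 4611 in the same libraries, within the range of the others.

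**Figure D4:**
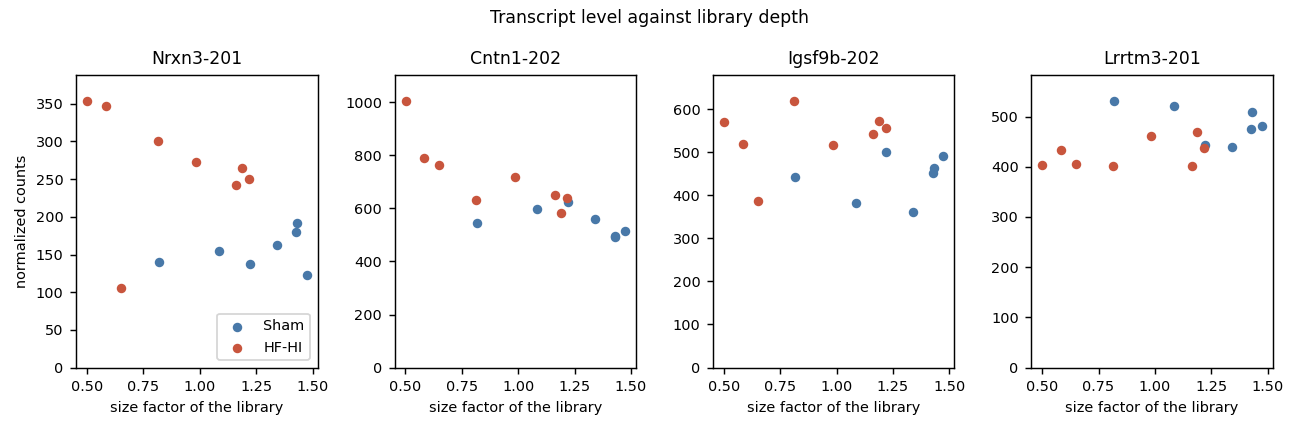
Normalized counts (vertical axis, starting at 0) of 4 of the 5 transcripts whose intervals left out 0 against the size factor of each library (horizontal axis, a measure of depth), Sham in blue and HF-HI in red. Cntn1-202 is highest in the shallowest libraries, and Nrxn3-201 in HF-HI replicate 2 lies at 106, away from the other shallow libraries.

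The neuroligin isoforms overlapped between the groups. Nlgn3-206, the form with the 60-base cassette, ranged from 137 to 260 normalized counts among Sham and from 207 to 428 among HF-HI libraries, with means of 217 ± 43.7 and 279 ± 73.2. Nlgn3-201, which skips the cassette and is the major form, had 601 to 1086 and 468 to 885, with means of 848 ± 145 and 707 ± 136. Nlgn3-206 made up 20.9% ± 5.93 of the Nlgn3 sum in Sham and 28.7% ± 7.98 in HF-HI, a log2 ratio difference of 0.62. This share is not corrected for transcript length and does not measure reads over the cassette. Only 76 bases of Nlgn3-206 are absent from Nlgn3-201, which has 0 bases of its own. Of the 8 HF-HI shares, 6 were over the Sham median. They were highest in HF-HI replicates 7 and 2, at 40.1% and 38.0%, which are shallow libraries. The interval included 0 without the libraries under a size factor of 0.7 (log2 ratio difference 0.27).

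Nlgn1-201, which carries both the 60-base and the 27-base cassette, made up 40.0% ± 4.42 of the Nlgn1 sum in Sham and 41.4% ± 6.85 in HF-HI. That share has the same limits as the Nlgn3 share, with 87 bases of Nlgn1-201 absent from Nlgn1-202. The major form, Nlgn1-202, had 489 to 659 and 388 to 679 normalized counts, and its VSD difference was -0.04 (-0.11 to 0.03). Nlgn1-201 itself ranged from 346 to 464 and from 297 to 444, and both isoforms overlapped between the groups over most of the Sham range.

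Nlgn2-201 and Nlgn2-202 encode the same 2508 bases and differ in the first exon. Nlgn2-201, the major form, had 111 to 810 normalized counts in Sham, with a median of 615, and 631 to 888 in HF-HI, with a median of 692. Sham replicate 5 was the exception to the order of the isoforms, with 111 normalized counts of Nlgn2-201 and 1001 of Nlgn2-202, whereas its gene sum of 1113 was within the range of the other libraries. In the other 14 libraries Nlgn2-201 exceeded Nlgn2-202. The VSD differences were 0.12 (-0.08 to 0.32) and -0.13 (-0.29 to 0.02).

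Other synaptic adhesion genes and their intracellular partners were taken from 4 lists of 96 genes, of which 85 were listed with 156 transcripts. Of these, 8 transcripts reached an unadjusted p under 0.05 in limma (5.13%), 4 higher and 4 lower, beside 8.83% of all transcripts, and none passed the adjusted threshold. Voom gave 7 at the unadjusted threshold. With the size factor as a covariate, only the Nfasc transcript of the 8 was still called. The median VSD difference was -0.01 over the 156.

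Among ligands and modulators of neurexins and neuroligins, 2 of 27 transcripts were called. The Clstn1 transcript, which encodes calsyntenin-1, had means of 1736 ± 133 and 2032 ± 225 normalized counts (Sham and HF-HI, VSD difference 0.13, log2 ratio of means 0.23). The sum of the 2 listed Clstn1 transcripts differed by 0.004 in log2.

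In the contactin, immunoglobulin and NCAM list, 1 of 38 transcripts was called, of Nfasc, the neurofascin of nodes and axon initial segments (VSD difference 0.05, log2 ratio of means 0.10). In the list of other trans-synaptic adhesion genes, 4 of 57 were called. A single transcript each of the receptor phosphatases Ptprd (1806 ± 108 and 1558 ± 262, VSD difference -0.13) and Ptprf (VSD difference -0.05) was lower. As log2 ratios of mean normalized counts, which the VSD scale narrows, these transcripts differed by -0.21 and -0.16. The sum of the 8 listed Ptprd transcripts differed by -0.02 in log2 and that of the 2 Ptprf transcripts by -0.11. Neither sum had an unadjusted p under 0.05 in limma. The only listed transcripts of the leucine-rich repeat proteins Lrfn1 and Flrt1 were higher (VSD differences 0.05 and 0.04, log2 ratios of means 0.22 and 0.14). Among intracellular partners, 1 of 34 was called. It was Lin7c, a PDZ scaffold of the CASK complex, with 1074 ± 20.7 and 984 ± 74.3 normalized counts (VSD difference -0.06, log2 ratio of means -0.13). Its 8 HF-HI values were all under the Sham median.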

How the data were processed

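Cortical total RNA had been sequenced after ribosomal depletion in 7 Sham and 8 HF-HI libraries. Per the study's methods and the submitters' processing notes, the authors aligned reads to mm10 with STAR, estimated counts per transcript with eXpress, removed outliers by Cook's distance and scaled with DESeq2. Versions of STAR and eXpress were not given in the sources used here. The authors deposited DESeq2's variance-stabilized data (VSD), in log2 units. The authors' estimation divides reads between transcripts that share exons, so isoform values are less certain than gene sums.

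The transformation was inverted from its value at a count of 0 (9.81). All values were then whole reads within 0.1 reads, which gave size factors and normalized counts. Precision is limited by counting and, for isoforms, by the division of reads between transcripts. In normalized counts, 1 read was worth 0.679 to 2.00. Of 10370 transcripts, 10241 matched GENCODE M21. Transcripts with a mean under 107.9 normalized counts were not analysed here.

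Differences were fitted with limma 3.58.1 (R 4.3.3), eBayes with trend, two-sided, over all transcripts, over log2(gene sum + 1), and over log2 ratios of a transcript to the rest of its gene (pseudocount 1). P-values were adjusted by the Benjamini-Hochberg method over all features, at the study's threshold of 0.1. The study used another test at that threshold, a Wald test in a negative binomial model. With it, the paper reports genes as significantly higher and others as significantly lower in HF-HI for these same groups. The absence of adjusted calls in the main limma fits holds for limma only and does not contradict those genes. The code was tested on simulated data. No count model was fitted here, so the study's test was not repeated. The samples are separate in the labels, but whether each was 1 animal is not stated there, so p-values measure the spread between these samples. The members, gene lists and tests were chosen with earlier results of these data known. Named were every member gene, its transcripts with an unadjusted p under 0.05 or the highest mean, and partner genes with such a transcript. Other transcripts were named for their cassettes after their values were seen. The samples were fitted as unpaired in the main fits. Deviations of libraries with the same replicate number correlated at -0.138 to 0.0905 over 7 numbers. Such correlations cannot exclude that same-numbered samples were handled together. Alternatives changed the prior, scaling, filter, pseudocount, weights, covariates, libraries and, after the data were seen, voom and depth. A further partner gene, counted in its list, and some cassettes are not reported here.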

Additional observations from a re-analysis of the deposited data

Results flagged for a closer look

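A library far from the rest of its group was looked for in 54 groups of values (each transcript, and each sum of several transcripts, in each group), and 7 were found, where chance flags about 1 in 20 groups. In HF-HI replicate 2 these were Nrxn3-201, the lowest of its group at 106.2 normalized counts with the next at 241.8, Igsf9b-202, the lowest at 386.2 with the next at 517.2, and Nrxn2-208, the highest at 381.6 with the next at 167.2. In HF-HI replicate 7, Nrxn2-201 was the highest at 763.0 with the next at 481.6, and Nlgn2-201 was the highest at 887.9 with the next at 747.5. In Sham replicate 5, Nlgn2-201 was the lowest at 111.2 with the next at 596.8, and Nlgn2-202 was the highest at 1001.4 with the next at 457.4. HF-HI replicates 2 and 7 are shallow libraries, with size factors of 0.650 and 0.585, whereas Sham replicate 5 is among the deepest, with 1.43. The part of depth in these values was not tested.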

How the results depend on the processing

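The differences of Nrxn3-201, Lrrtm3-201 and Igsf9b-202 kept their direction in every alternative in which they were tested (24, 25 and 25). Their unadjusted p stayed under 0.05 in each of these fits, with limma or with voom. The Lrrtm3 and Igsf9b sums did the same in 23, but each sum holds the values of its single listed transcript and adds no separate result. Nrxn3-201 was not tested with the filter at a mean of 300 normalized counts. With the log2 size factor as a covariate, 3 member transcripts (Cntn1-202 and Nrxn2-202 lost), 1 share and 1 partner transcript were called. Shares called numbered 2 with array weights, 2 with the filter at 300 (13 tested) and 2 in libraries with a size factor above 0.7. Leaving out 1 library in turn gave 4 to 7 member transcripts, 2 to 3 gene sums, 2 to 4 shares and 4 to 10 partner transcripts; the Nlgn3 share pair was lost without Sham replicates 1, 2, 3 or 7 or HF-HI replicates 2, 3, 4, 6 or 7. The Nrxn2 sum was called without Sham replicate 7 (-0.20) or HF-HI replicate 7 (-0.19), and the Nlgn3 sum without Sham replicate 6 (-0.17). The Cntn1 sum, with a difference near 0, changed sign in 6 of these fits, with a range of -0.0093 to 0.0055 over them all. The replicate block gave 5 member transcripts (Nrxn2-202 lost, Nlgn3-201 gained), 2 gene sums, 4 shares and 6 partner transcripts (those of Nfasc, Ptprd and Ptprf were among the lost); own-number correlation was highest for 1 of 7 numbers. Causes of these changes were not tested. Counting limits the low isoforms: reads per library ran from 36 for Nrxn2-208 to 4130 for Cntn1-204.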
